A study of Chlamydomonas reinhardtii with 27 samples.

Results

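The late genes are 150 nuclear genes of the unicellular green alga Chlamydomonas reinhardtii whose transcripts were more abundant at 48, 72, and 96 h of salt stress than in any earlier condition. The cells were of GY-D55, a wild-type strain grown in BG-11 medium at 23 °C with 16 h of light and 8 h of dark. NaCl treated samples were taken at 8 time points after NaCl was added to 200 mM, at 2, 4, and 8 h, at 12 h, and then daily from 24 to 96 h, and 1 control group received no NaCl. Each of the 9 conditions had 3 replicates, which gave 27 libraries of polyadenylated RNA. All samples were of the same strain, with no mutant or transgene, and whether replicates came from separate cultures is not given in the sources used here, so that p-values measure the spread between these samples. The control group has no stated sampling time. Salt, the age of the culture, and the time of day can therefore not be told apart in a comparison with it. The 24, 48, 72, and 96 h samples are whole days apart, which matches them in the time of day only. Between them, the time in salt and the age of the culture cannot be told apart.

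Expression was taken as FPKM, the read count of a gene divided by its length and by the scaled size of the library. Of 19267 identifiers in the tables, 14354 were annotated genes with a CHLREDRAFT identifier, and 10652 of these had a mean count of at least 50 over the 27 libraries. The 3255 genes whose log2(mean FPKM + 1) at 2 h lay within 0.5 of the control were then kept. The score of a gene was the lowest of its 3 late levels minus the highest of its 6 earlier levels, control included, on the log2(mean FPKM + 1) scale. Of the 3255 genes, 217 scored above 0, and the 150 highest were taken. The genes were chosen by their FPKM at all 9 conditions, so their high late levels are a description and carry no test. The count limit also used the late libraries, so a low gene could pass it by its late counts. The rule set no direction between 48, 72, and 96 h, but it used the lowest of these levels, so differences among them are given as a description too.

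When C. reinhardtii meets high salt, cells lose water, stop dividing, and often stay together in palmelloids, groups of cells held in a common extracellular matrix. Within hours the cells make glycerol as an osmolyte, change their photosynthetic apparatus, and raise chaperones and antioxidant enzymes, and over days the surviving culture acclimates and divides again. The genes are given here by their identifier and, where it matched, by the locus tag of the v5.5 assembly. The tables used here pair none of the 150 identifiers with a gene name or product, so no function is stated for them. Of the transcription factors (TFs) that the study lists, 81 passed the count limit and 25 the 2 h limit, and 0 were among the late genes.

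The libraries held 15286332 to 24783139 counts, with a median of 18749997. Replicate 1 at 72 h and replicate 1 at 2 h stood apart, because their 50 most abundant genes took 41.1% and 37.6% of all counts, where the next highest library had 31.2% and the lowest 20.4%. The main values at 72 h are also given without the first of them. The late genes took 0.910% to 1.09% of the counts in the 9 late libraries, and 0.385% to 0.650% in the 18 earlier libraries, of which the control libraries had 0.385% to 0.414%. Replicate 1 at 72 h had the lowest late share, 0.910%, but the highest median log2(FPKM + 1) of the late genes, 3.91. FPKM divides by the scaled library size, so a high FPKM in this library need not mean more reads. Fewer cells with a transcript and less RNA per cell cannot be told apart in such bulk samples.

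The median level of the late genes moved little during the first day and stood higher from 48 h on, whereas single genes moved more. The median of the mean FPKM over the 150 genes was 5.87 in the control and 5.33 at 2 h. It lay between 6.33 and 6.66 at 4, 8, and 12 h and was 7.10 at 24 h. In the late period it was 10.6 at 48 h, 13.2 at 72 h (12.8 without replicate 1), and 12.5 at 96 h. On the log2(mean FPKM + 1) scale the median difference from the control lay between 0.12 and 0.23 from 4 to 12 h and was 0.27 at 24 h. It was 0.73 for the 48 h samples, 0.98 for those of 72 h (0.91 without replicate 1), and 0.89 for those of 96 h. Over all 10652 genes past the count limit the same medians lay between -0.07 and 0.00. Within single genes, the range of the 6 earlier levels had a median of 0.73 on this scale, so rises and falls are partly hidden in the medians. A small change at 2 h and a step between the earlier and the late levels are built into the rule.

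**Figure D1:**
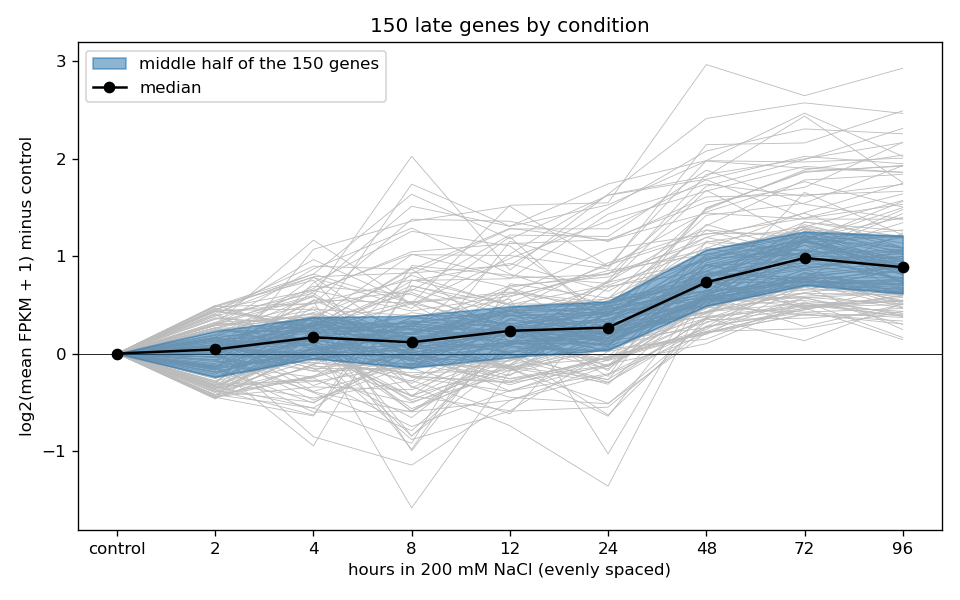
Difference from the control in log2(mean FPKM + 1), vertical axis, against condition, horizontal axis with time points evenly spaced. Each grey line is 1 of the 150 late genes (mean of 3 replicates), the blue band holds the middle 50% of them, and the black line is their median, which stood at 0.27 at 24 h and 0.73 at 48 h.

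Most late genes changed by a modest factor. The mean of the 9 late libraries over the mean of the control libraries had a median of 1.99 across the 148 genes with a control level above 0 (interquartile range 1.60 to 2.88, lowest 1.23). The ratio was above 4 in 21 genes, between 2 and 4 in 50, and below 1.5 in 23. Against 24 h the median ratio was 1.56 (interquartile range 1.33 to 1.99, lowest 1.11). The scores were correspondingly small. They ran from 1.13 to 0.0793 with a median of 0.221 on the log2 scale, and only 3 genes scored above 1, 14 above 0.5, and 57 above 0.25. At the lower end, CHLREDRAFT_166320, CHLREDRAFT_147252, and CHLREDRAFT_183109 were the last genes taken, each with a score of 0.08 when rounded. CHLREDRAFT_155174, CHLREDRAFT_196341, and CHLREDRAFT_151650 were the next genes left out, with scores of 0.08, 0.07, and 0.07. The last genes inside and the next outside thus differed by very little, and membership near this end is a matter of small differences.

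The late genes were spread over a wide range of abundance. The mean of the late libraries was below 5 FPKM in 31 genes, between 5 and 100 FPKM in 110, and above 100 FPKM in 9, with a median of 11.7 FPKM. In the control, 18 genes had a mean below 1 FPKM. The pseudocount of 1 FPKM shrinks the differences of such low genes, so their scores understate their ratios.

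In 34 of the 150 genes every one of the 9 late libraries lay above every one of the 18 earlier libraries. Among all 10652 genes past the count limit, 93 did so, which is 0.873%, and the rule of choice itself favours such genes. These genes were unevenly placed, since 14 of them were among the 20 highest scores, 30 among the 50 highest, and 1 among the 50 lowest. In the other 116 genes the late and the earlier libraries overlapped. Without replicate 1 at 72 h the number was 42, and without replicate 1 at 2 h it was 36.

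**Figure D2:**
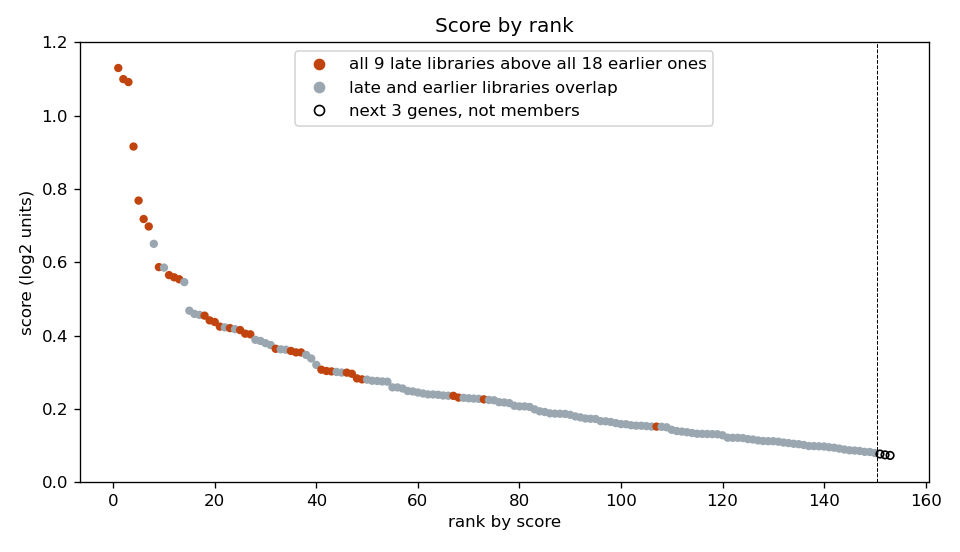
Score (log2 units), vertical axis, by rank, horizontal axis. Orange points are the 34 genes whose 9 late libraries all lay above the 18 earlier ones, grey points the other late genes, and open circles the next 3 genes, which were left out. Scores above 0.5 belong to 14 genes and the curve flattens after them.

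CHLREDRAFT_149776 (CHLRE_03g150000v5) had the highest score and no count in any control library. It had 2.94, 3.59, and 3.74 FPKM at 48 h, 2.15, 4.61, and 3.66 FPKM at 72 h, and 4.19, 5.08, and 4.61 FPKM at 96 h. The 18 earlier libraries ran from 0 to 1.58 FPKM with a median of 0.491 FPKM, and the highest of them were at 8, 12, and 24 h. The late libraries thus lay above all earlier ones, and the gene was already detected in replicates 2 and 3 at 2 h. Its late libraries held 50 to 231 counts. Against a floor of 3 counts per library the late mean was at least 43.2-fold higher than the control. CHLREDRAFT_144265 (CHLRE_10g437300v5), the only other late gene with 0 counts in the control, had 71 to 196 counts in the late libraries. Its late mean was 1.24 FPKM, at least 30.2-fold above the same floor, but its 8 h libraries reached 0.993 FPKM and overlapped the late ones. Both genes passed the count limit only with the counts of their late libraries, so these ratios are a description.

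CHLREDRAFT_117748 (CHLRE_12g556750v5) stood higher at 24 h than in the control and higher again in the late period. It had 17.8, 19.6, and 20.8 FPKM at 48 h, 14.4, 13.0, and 18.5 FPKM at 72 h, and 21.0, 17.9, and 17.6 FPKM at 96 h. The control libraries had 1.15, 0.814, and 2.85 FPKM, and those at 24 h had 5.69, 8.21, and 5.95 FPKM. The 24 h libraries thus lay above the control libraries, and the late ones above both. Its late mean was 11.1 times the control mean and 2.70 times the 24 h mean.

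CHLREDRAFT_169066 (CHLRE_03g169100v5) was low through 12 h. Its late libraries ran from 2.44 to 5.03 FPKM (mean 3.32 FPKM), where the 3 control libraries had 0, 0.135, and 0.0899 FPKM from 0, 5, and 3 counts. At 24 h it had 1.40, 0.919, and 0.0938 FPKM, so that the replicates spread widely at the time point before the late period. CHLREDRAFT_190596 (CHLRE_03g200900v5) was similar, with a late mean of 3.67 FPKM and 0.257, 0, and 0.178 FPKM in the control. Unlike CHLREDRAFT_169066, its earlier maximum was at 8 h, where its libraries had 1.10, 1.47, and 1.40 FPKM. In both genes the late and the earlier libraries did not overlap.

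CHLREDRAFT_191725 (CHLRE_06g286350v5) was the most abundant of the 6 genes with the highest scores. It had 36.0, 34.3, and 36.0 FPKM at 48 h, 64.4, 38.2, and 39.3 FPKM at 72 h, and 53.1, 48.4, and 56.7 FPKM at 96 h. The control libraries had 12.2, 10.9, and 13.2 FPKM, and the 24 h libraries 18.1, 17.8, and 19.1 FPKM. Before its late plateau the gene passed through a low point at 8 h, at 5.74, 5.82, and 5.27 FPKM. All 9 late libraries lay above the other 18, and replicate 1 at 72 h had the highest FPKM of the 27. That library held 1592 counts of the gene, below the 1814 of replicate 3 at 72 h, so its rank rests on the scaled library size.

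CHLREDRAFT_108487 (CHLRE_12g558550v5) and CHLREDRAFT_176892 (CHLRE_06g278089v5) completed the 6 highest scores. CHLREDRAFT_108487 stayed between 2.38 and 6.07 FPKM in the earlier libraries and ran from 8.92 to 14.2 FPKM in the late ones. CHLREDRAFT_176892 had 3.31 to 4.72 FPKM in the late libraries, against 1.74, 1.31, and 2.31 FPKM in the control. It was lower at 8 h, with 0.231, 0.226, and 0.322 FPKM, and by 24 h had returned to 1.80, 1.38, and 1.49 FPKM.

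**Figure D3:**
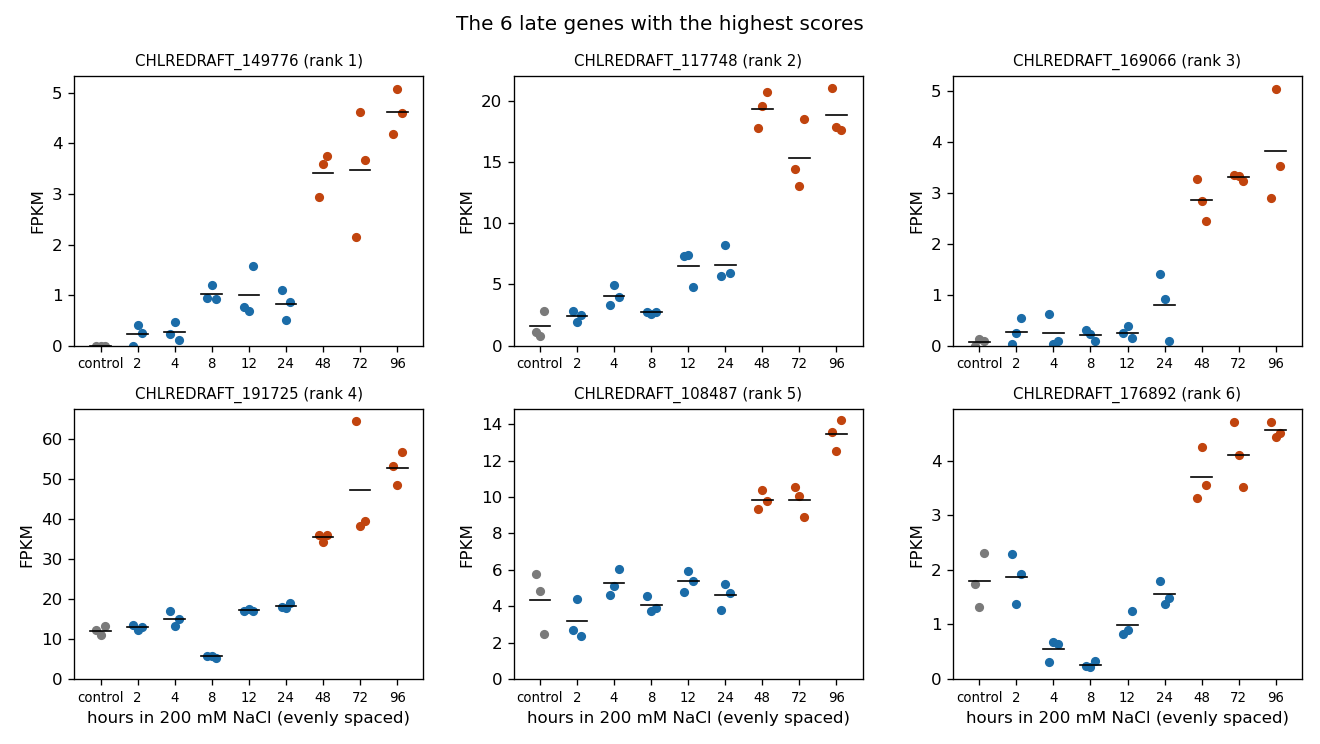
FPKM, vertical axes starting at 0, of the 6 late genes with the highest scores in each of the 27 libraries, by condition on the horizontal axes with time points evenly spaced. Points are libraries (grey control, blue 2 to 24 h, orange 48 to 96 h) and bars are means of 3 replicates. In each of the 6 genes the orange points all lie above the others.

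Among ranks 7 to 20, 8 of the 14 genes had late libraries that lay above all earlier ones. CHLREDRAFT_148406, which had no matching locus tag, was the most abundant of those not falling at 8 h. It had 46.7 to 68.2 FPKM in the late libraries, 38.9, 29.9, and 32.8 FPKM at 24 h, and 12.3, 10.7, and 11.2 FPKM in the control. CHLREDRAFT_126076 (CHLRE_10g429800v5) had 9.91 to 17.6 FPKM in the late libraries, against 4.31, 3.91, and 3.28 FPKM in the control. CHLREDRAFT_193213 (CHLRE_16g648950v5) had 7.71 to 12.2 FPKM, against 5.23, 3.60, and 3.66 FPKM. CHLREDRAFT_141529 (CHLRE_02g091500v5) and CHLREDRAFT_171756 (CHLRE_01g030100v5) were low genes without overlap. Their late means were 1.77 and 1.34 FPKM, which was 5.89 and 8.77 times their control means.

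Replicate 1 at 72 h was the only late library inside the earlier range in 5 other genes of these ranks. CHLREDRAFT_146956 (CHLRE_01g053550v5) had 0.915 FPKM in that library, 3.45 and 2.40 FPKM in the other libraries at 72 h, and 0.557, 0.877, and 0.325 FPKM in the control. CHLREDRAFT_118729 (CHLRE_16g673550v5) had 7.28, 13.0, and 12.9 FPKM at 72 h, and its highest earlier library had 7.90 FPKM. CHLREDRAFT_147241 (CHLRE_12g530550v5) had 4.31, 8.68, and 8.08 FPKM at 72 h, and 5.35 FPKM in its highest earlier library. In CHLREDRAFT_188973 that library had 1.71 FPKM and the highest earlier one 2.13 FPKM. In CHLREDRAFT_192489 (CHLRE_17g724800v5) it had 2.34 FPKM and the highest earlier one 2.48 FPKM. CHLREDRAFT_120462 (CHLRE_06g278202v5) overlapped through its earlier libraries, since 1 library at 12 h reached 11.2 FPKM and the late ones ran from 10.7 to 15.6 FPKM.

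The paths before 48 h differed among the late genes. The range of the 6 earlier levels was below 0.5 on the log2 scale in 37 genes and above 1 in 39. The 37 flat genes had a median late level 1.65 times the control, and 4 of them had no overlap between late and earlier libraries. The pseudocount narrows this range in low genes, so flat does not mean unchanged there. CHLREDRAFT_154254 was among the 37 with 0.0661, 0, and 0.156 FPKM in the control and 0.533, 0.406, and 0.598 FPKM at 2 h. The highest earlier level was that of 24 h in 52 genes, of 4 h in 29, of 8 h in 28, and of 12 h in 27. It was that of 2 h in 9 genes and of the control in 5. The lowest was that of 2 h in 46 genes, of the control in 43, and of 8 h in 28, and lay at another time point in the remaining genes. The late genes therefore did not share a single course during the first day, and what they share is the order set by the rule.

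At 24 h, 43 late genes already stood more than 0.5 above the control on the log2 scale, 100 lay within 0.5, and 7 were lower by more than 0.5. The 43 had a median late level 3.53 times the control. In 49 genes the levels stood in the order control, 8 h, 24 h, and 48 h from low to high. CHLREDRAFT_194571 had 66.4, 89.6, and 77.2 FPKM at 48 h and 62.1, 65.1, and 60.7 FPKM at 24 h, against a control mean of 22.6 ± 7.48 FPKM (SD, n = 3). Its late and 24 h libraries overlapped, since it had 38.0, 69.1, and 107 FPKM at 72 h. CHLREDRAFT_194086 had 49.2, 49.9, and 55.6 FPKM at 48 h and 40.1, 37.7, and 52.7 FPKM at 24 h, against 13.7, 13.3, and 9.95 FPKM in the control. Across the 43 genes the 24 h mean over the late mean had a median of 0.719 and a lowest value of 0.215, and it was above 0.5 in 35.

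The 7 genes that were lower at 24 h than in the control turned from a low to a high level within 1 day. CHLREDRAFT_168698 (CHLRE_13g580150v5) had 7.12, 7.21, and 5.92 FPKM at 48 h and 0.813, 1.36, and 0.787 FPKM at 24 h, with 4.43, 4.16, and 3.72 FPKM in the control. CHLREDRAFT_154289 (CHLRE_02g118000v5) had 1.86, 2.25, and 2.40 FPKM at 48 h and 0.155, 0.513, and 0.258 FPKM at 24 h, with 1.25, 1.29, and 0.593 FPKM in the control. The late means of these genes were 11.1 and 11.4 times their 24 h means. CHLREDRAFT_149336 (CHLRE_06g281600v5) had 89.5, 95.3, and 71.9 FPKM at 48 h and 26.9, 26.0, and 24.4 FPKM at 24 h, but its control libraries spread widely, at 25.3, 39.9, and 95.6 FPKM. The other genes of this kind were CHLREDRAFT_173696, CHLREDRAFT_195219, CHLREDRAFT_152247, and CHLREDRAFT_179431. Only 2 of the 7 had no overlap between late and earlier libraries.

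The 8 h samples set a further group apart. In 6 late genes the level at 8 h was lower than every other earlier level by at least 0.5 on the log2 scale. They were CHLREDRAFT_191725, described above, CHLREDRAFT_205884, CHLREDRAFT_141133, CHLREDRAFT_183979, CHLREDRAFT_145347, and CHLREDRAFT_156475. CHLREDRAFT_205884 (CHLRE_16g661150v5) had 66.6, 60.0, and 69.2 FPKM at 48 h and 21.1, 20.3, and 20.5 FPKM at 8 h, with 44.0, 30.5, and 39.4 FPKM in the control. CHLREDRAFT_141133 (CHLRE_10g419500v5) had 90.9, 90.1, and 101 FPKM at 48 h and 21.5, 18.8, and 21.2 FPKM at 8 h, with 72.4, 61.3, and 56.9 FPKM in the control. In both genes the 3 replicates at 8 h lay close together and below all other libraries. Across all late genes, the level at 8 h was above the control by more than 0.5 in 34 and below it by more than 0.5 in 17. CHLREDRAFT_172331 (CHLRE_14g621700v5) had 8.96, 10.5, and 12.4 FPKM at 48 h and 7.62, 7.55, and 8.47 FPKM at 8 h, against 1.32, 1.15, and 1.07 FPKM in the control. At 12 h it had 3.53, 2.46, and 2.86 FPKM, so that its 8 h level was a separate early maximum.

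**Figure D4:**
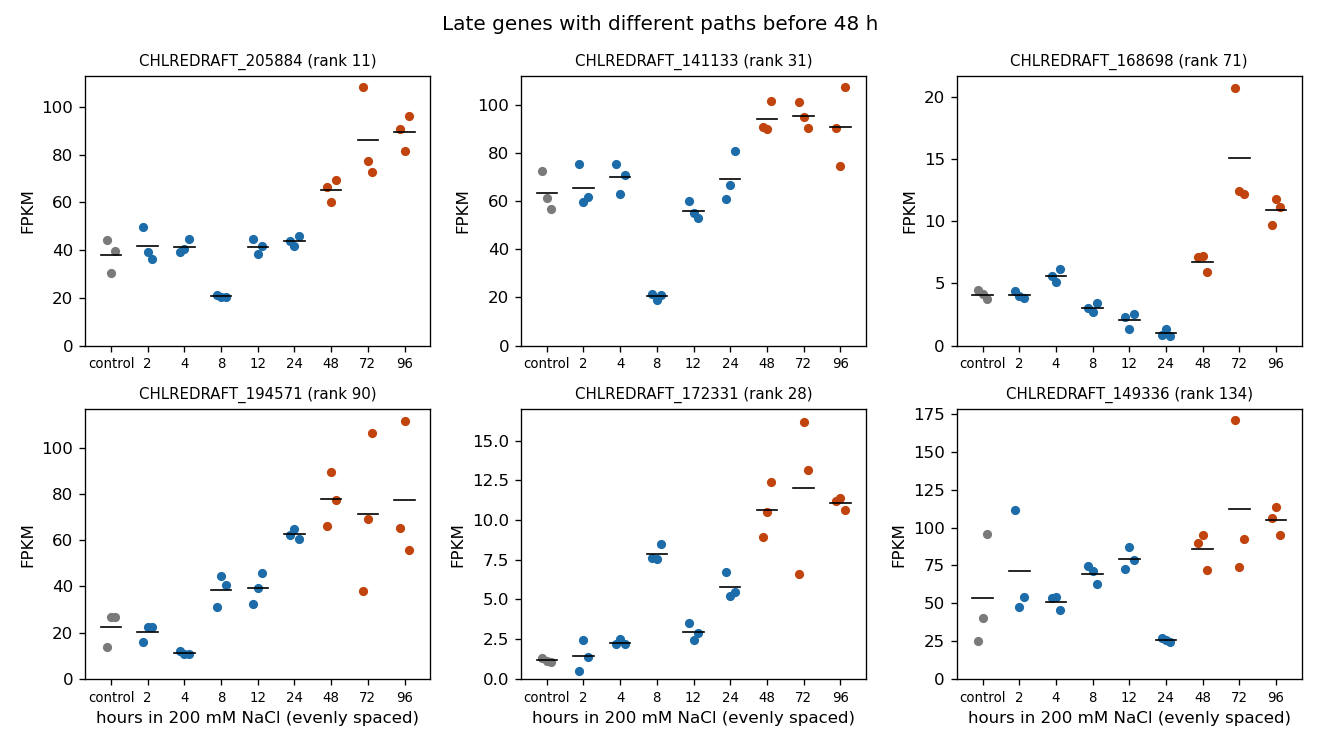
FPKM, vertical axes starting at 0, of 6 late genes with different paths before 48 h, by condition on the horizontal axes with time points evenly spaced. Points are libraries (grey control, blue 2 to 24 h, orange 48 to 96 h) and bars are means of 3 replicates. CHLREDRAFT_205884 and CHLREDRAFT_141133 are lowest at 8 h, CHLREDRAFT_168698 and CHLREDRAFT_149336 at 24 h, CHLREDRAFT_194571 is close to its late level at 24 h, and CHLREDRAFT_172331 has an early maximum at 8 h.

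The 9 late genes above 100 FPKM had late means of 1.34 to 4.18 times the control, with a median of 1.72 and 2 genes above 2. CHLREDRAFT_193461 (CHLRE_14g613900v5) had 411, 429, and 452 FPKM at 48 h, 658, 388, and 409 FPKM at 72 h, and 447, 352, and 496 FPKM at 96 h, against 385, 275, and 197 FPKM in the control. Its late libraries overlapped the control. CHLREDRAFT_137142 (CHLRE_03g192050v5) had 369, 388, and 389 FPKM at 48 h, 583, 463, and 478 FPKM at 72 h, and 451, 399, and 470.5 FPKM at 96 h, against 300.5, 319, and 235 FPKM in the control, with no overlap between the late and the control libraries. CHLREDRAFT_182602 (CHLRE_10g459200v5) had a late mean 2.11 times the control, with 73.0, 78.6, and 72.2 FPKM at 8 h. Its lowest late library, at 96 h, had 230 FPKM and its highest earlier library, at 12 h, 242 FPKM. Of the 9 genes above 100 FPKM, CHLREDRAFT_192929 (CHLRE_06g278269v5) had the largest ratio to the control, 4.18. Its 24 h libraries, at 127, 140, and 135 FPKM, overlapped the late ones, which ran from 115 to 370 FPKM. The highest was replicate 1 at 72 h, and the next highest late library had 178 FPKM.

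DEGs were called with edgeR at an adjusted p below 0.05 over 16443 genes. Since the levels against the control and 24 h chose the genes, the calls are listed with nothing read from them. Called higher than the control were 121 late genes at 48 h (26.9% of all genes tested were called so), 133 at 72 h (28.7%), and 136 at 96 h (28%). Called higher than at 24 h were 48 of the late genes at 48 h (6.42%), 71 at 72 h (9.95%), and 68 at 96 h (10.9%). Called lower were 0 in each of these comparisons (0 also at an unadjusted p below 0.05), where of all genes tested 24.3%, 26.6%, and 26% were lower than the control at 48, 72, and 96 h, and 7.46%, 9.71%, and 10.7% were lower than at 24 h. In 34 late genes all of these 6 calls were made (2.36% of all genes). Without replicate 1 at 72 h, 134 late genes were called higher at 72 h than the control (28.3%) and 65 higher than at 24 h (7.81%). All late libraries lay above all control libraries in 109 genes (23.9% of genes past the count limit), and above all 24 h libraries in 69 (9.52%).

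At 2 h against the control, 17 late genes were called higher (30.1% of all genes were) and 4 lower (30.8%). At 4 h the numbers were 38 higher (28%) and 9 lower (28.6%), and at 8 h 41 higher (28.4%) and 20 lower (28.3%). At 12 h they were 42 higher (25.7%) and 4 lower (24.5%), and at 24 h 58 higher (24.9%) and 3 lower (24%). The limit at 2 h and the upper bound at the other time points were part of the rule, so these counts are also a description. The comparisons share the control libraries.

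Within the late period, calls were few among the late genes and among all genes. At 72 h against 48 h, edgeR called 3 late genes higher (1.67% of all genes tested were) and 0 lower (1.33%). At 96 h against 48 h it called 1 higher (1.79%) and 0 lower (1.56%), and at 96 h against 72 h 0 higher (0.0426%) and 0 lower (0.122%). At an unadjusted p below 0.05, 72 h against 48 h gave 21 late genes higher (9.4%) and 0 lower (8.42%), 96 h against 48 h 9 higher (7.27%) and 1 lower (6.85%), and 96 h against 72 h 0 higher (3.79%) and 5 lower (3.97%). DESeq2 called 8 late genes higher (4.83%) and 0 lower (3.02%) at 72 h against 48 h. It called 3 higher (3.79%) and 0 lower (2.47%) at 96 h against 48 h, and 0 higher (0.291%) and 0 lower (0.401%) at 96 h against 72 h. Because the rule favours genes with no low late level, nothing is read from these counts about the late genes.

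The median log2 fold change of the 150 late genes was 0.17 at 72 h against 48 h (all genes -0.03), 0.11 at 96 h against 48 h (all genes -0.01), and -0.04 at 96 h against 72 h (all genes 0.01). Without replicate 1 at 72 h it was 0.21 at 72 h against 48 h (all genes 0.02) and -0.01 at 96 h against 72 h (all genes 0.00). The mean FPKM was higher at 72 h than at 48 h in 121 of the 150 genes, higher at 96 h than at 48 h in 106, and higher at 96 h than at 72 h in 65. All 3 libraries at 72 h lay above those at 48 h in 36 genes (16.3% of genes past the count limit) and below them in 4 (14.3%). At 96 h all 3 lay above those at 48 h in 38 (18.5%) and below them in 5 (15.5%). At 96 h all lay above those at 72 h in 5 (6.69%) and below them in 8 (4.74%). Without replicate 1 at 72 h the mean was higher at 72 h than at 48 h in 110 genes and higher at 96 h than at 72 h in 74. The libraries at 72 h then lay above those at 48 h in 54 genes (22.6%) and below them in 9 (20.4%), and those at 96 h above those at 72 h in 14 (12.4%) and below them in 16 (11.2%).

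The highest level was at 72 h in 75 late genes, at 96 h in 52, and at 48 h in 23. In FPKM, replicate 1 at 72 h was higher than both other replicates in 79 genes, lower than both in 50, and between them in 21. Without that library the highest level was at 72 h in 65 genes, at 96 h in 61, and at 48 h in 24. The larger number at 72 h was thus smaller without it, and the part of this library in the calls is given next.

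CHLREDRAFT_168698 had the largest called difference within the late period. It had 20.7, 12.4, and 12.2 FPKM at 72 h, against 7.12, 7.21, and 5.92 FPKM at 48 h. At 96 h it had 9.69, 11.8, and 11.2 FPKM. The libraries at 72 h did not overlap those at 48 h. It was called higher at 72 h than at 48 h with a log2 fold change of 1.11 (SE 0.24). Without replicate 1 at 72 h the log2 fold change was 0.88 and it was not called.

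CHLREDRAFT_188814 (CHLRE_06g309717v5) had 27.9, 14.0, and 15.5 FPKM at 72 h, against 11.1, 10.7, and 8.46 FPKM at 48 h. It was called higher with a log2 fold change of 0.87 (SE 0.24), and without replicate 1 at 72 h the value was 0.56. CHLREDRAFT_182549 (CHLRE_10g448400v5) had 91.0, 62.5, and 55.4 FPKM at 72 h, against 44.1, 38.9, and 43.8 FPKM at 48 h. The counts of CHLREDRAFT_182549 at 72 h were 1120, 1125, and 1272, so replicate 1 was the highest only after scaling. Its log2 fold change was 0.67 (SE 0.15), and 0.50 without replicate 1 at 72 h. In all 3 genes the libraries of 72 h lay above those of 48 h with and without that replicate, but 0 late genes were called at 72 h against 48 h once it was left out (0.665% of all genes were called higher). Without replicate 1 at 2 h, 8 were called higher (3.91%).

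CHLREDRAFT_191725 was called higher at 96 h than at 48 h, with 53.1, 48.4, and 56.7 FPKM at 96 h against 36.0, 34.3, and 36.0 FPKM at 48 h. The log2 fold change was 0.54 (SE 0.15), and the libraries did not overlap. The call was lost without any single library of 48 h and without replicate 1 or 3 of 96 h, with log2 fold changes of 0.49 to 0.60. A fit of only the 6 libraries of 48 and 96 h called 16 late genes higher (7.83% of the genes tested in it) and 1 lower (5.86%).

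**Figure D5:**
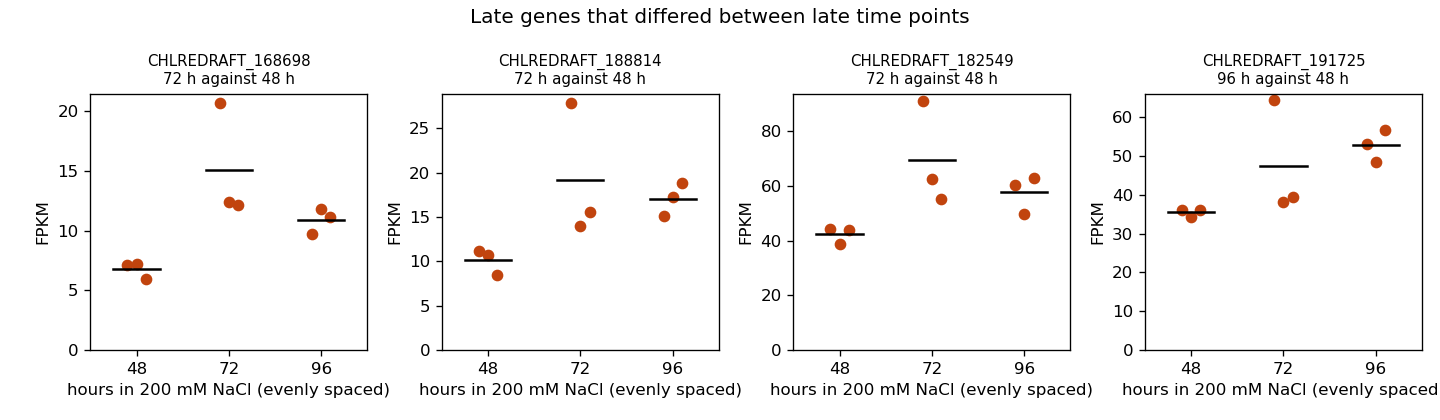
FPKM, vertical axes starting at 0, at 48, 72, and 96 h for the 4 late genes called between late time points, with the comparison above each panel. Points are libraries and bars are means of 3 replicates. Replicate 1, the left point of each trio, has the highest FPKM at 72 h in all 4 genes, although replicate 3 held more counts of each.

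The choice of genes was rerun without each replicate number in turn, and the genes so chosen were scored in the replicates left out. This measures the score in libraries whose FPKM did not choose the genes. The count limit still used all 27 libraries, so the left-out libraries were not fully apart from the choice. Replicates may also have shared a culture, which is not stated, so the values are a description. With replicate 1, 2, or 3 left out, 77, 86, and 86 of the 150 genes chosen scored above 0 in the replicate left out. This was 51.3%, 57.3%, and 57.3%, where 3.72%, 3.93%, and 4.08% of all genes past the count limit did so, and 4.55%, 5.35%, and 5.56% of those also within the 2 h limit. The median score in the left-out replicate was 0.02, 0.09, and 0.06, where it was 0.27, 0.21, and 0.21 in the replicates that chose the genes. A score in 1 replicate takes the lowest of 3 and the highest of 6 single libraries, whereas the score that chose the genes used means of replicates. The 2 scores are therefore not alike, and the cause of the lower values was not tested.

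The high ranks, which lie further from the lowest score taken, were kept more often than the low ones. Each rerun used libraries that also made the first choice, so this order is largely built in. Of the 150 late genes, 101, 109, and 99 were chosen again without replicate 1, 2, and 3, and 58 were chosen in all of these reruns. The 58 included 13 of the 20 highest scores, 33 of the 50 highest, and 3 of the 50 lowest. Another 9 late genes were chosen in none of the reruns. Without the limit on the 2 h level, 504 genes scored above 0 and 352 reached the score of the lowest late gene, and of the 150 highest of them 53 were late genes.

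The spread between replicates of the late genes was close to that of other genes. The median coefficient of variation was 10.2% at 48 h, 21.2% at 72 h, and 12.8% at 96 h in the late genes, and 10.1%, 22.4%, and 13.8% in all genes past the count limit. The late genes had somewhat longer gene models, with a median length of 1651.5 bases (interquartile range 1114 to 2599) beside 1457.5 bases (927 to 2193) for all genes past the count limit. Their median of the mean FPKM over the 27 libraries was 8.22, beside 12.7. These lengths were recovered from the ratio of count to FPKM, and length and abundance both bear on the summed count that the rule required.

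Of the 150 late genes, 138 matched a locus tag, and apart from 1 with no known chromosome they lay on 16 of the 17 chromosomes. Chromosome 6 held 22 of them, 2.34% of its 942 genes past the count limit, chromosome 12 held 19 (1.82%), and chromosome 17 held 11 (1.97%), whereas chromosome 11 held 1 (0.347%) and chromosome 15 held 0 of 80. On chromosome 6, 8 late genes had locus tags between CHLRE_06g278089v5 and CHLRE_06g278271v5. This stretch holds 177 genes, 107 of them past the count limit and 41 also within the 2 h limit. Late genes were 19.5% of these 41, and 4.61% of all annotated genes within that limit. The stretch was chosen after its genes were seen, so no test is given. Its members included CHLREDRAFT_176892 and CHLREDRAFT_120462, described above, and CHLREDRAFT_131630, with ranks of 6, 17, and 43.

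Among the late genes, 3 pairs were direct neighbours on a chromosome and 4 more had 1 gene between them. CHLREDRAFT_147252 and CHLREDRAFT_205936 (CHLRE_12g530050v5 and CHLRE_12g530100v5) were neighbours with ranks of 149 and 48. CHLREDRAFT_205936 had 17.1 to 24.1 FPKM in the late libraries and 7.96 to 15.5 FPKM in the earlier ones. CHLREDRAFT_147252 had 3.44 to 6.11 FPKM in the late and 1.85 to 5.61 FPKM in the earlier libraries, which overlapped. The correlation of log2(FPKM + 1) over the 27 libraries, which share conditions and the rule, was 0.74 for this pair, 0.65 for CHLREDRAFT_187168 and CHLREDRAFT_134165, and 0.40 for CHLREDRAFT_149336 and CHLREDRAFT_191655. In the v5.5 annotation the genes of these 3 neighbour pairs did not overlap each other. The models of CHLREDRAFT_158650, CHLREDRAFT_135393, and CHLREDRAFT_191737 each overlapped another gene on the same chromosome. Strand use in the counting is not given in the sources used here, so reads from such overlaps cannot be told apart. The pairs with 1 gene between them were CHLREDRAFT_188239 with CHLREDRAFT_169066 (correlation 0.73), CHLREDRAFT_195426 with CHLREDRAFT_141529 (0.72), CHLREDRAFT_177187 with CHLREDRAFT_193213 (0.68), and CHLREDRAFT_192929 with CHLREDRAFT_151264 (0.49).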

How the data were processed

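Poly(A) libraries were made and sequenced by the authors, who aligned reads with HISAT2 2.0.5, assembled further transcripts with StringTie 1.3.3b, and counted reads per gene with featureCounts. The deposited counts are whole numbers without normalization. The deposited FPKM values divide the counts by gene length and a scaled library size. No sample or column was left out. The 150 genes and all lists were chosen with earlier results of these data known. Gene lists by name could not be applied, because the v5.5 reference table (17742 genes, 12541 identifiers matched) gives 0 symbols other than locus tags.

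DEGs were called on the counts with edgeR 4.0.16 in R 4.3.3 (filterByExpr, TMM, quasi-likelihood, 9 conditions, 27 libraries, two-sided tests, p adjusted by Benjamini-Hochberg over 16443 genes, threshold 0.05). Tables were made in Python 3.11.15 with numpy 2.4.6 and pandas 2.3.3, and figures with matplotlib 3.10.9. Named genes were the 20 highest scores, the 3 on each side of the lowest score, and those called between late time points. Others illustrate paths, abundance, or position and were chosen after their values were seen. Alternatives were DESeq2 1.42.0, RLE, other filters, 6 libraries, |log2 fold change| above 1, a replicate block, CPM, a pseudocount of 0.1, medians, other limits, and left-out libraries. The depth per library (15286332 to 24783139 counts) sets the counting error, and 3 counts was the floor for a ratio.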

Additional observations from a re-analysis of the deposited data

Results flagged for a closer look

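Signal of the same kind was present in data outside the rule, the transcripts that the authors assembled beside the annotated genes. Of 2023 such transcripts with the same summed count, 667 were within the 2 h limit, and 44 reached the score of the lowest late gene. This is 6.60% of the 667, where the 150 late genes are 4.61% of the annotated genes within that limit. In 7 of the 44 every late library lay above every earlier one. The highest score, 0.89, belonged to a transcript with no annotated name, which had 4.62, 3.27, and 3.74 FPKM at 48 h, 8.99, 5.26, and 4.17 FPKM at 72 h, and 5.70, 4.83, and 6.31 FPKM at 96 h, against 0.451, 0.273, and 0.376 FPKM in the control. The next scores were 0.86 and 0.79. No test was made on these transcripts. Groups of 3 are too small for Dixon's test of an outlying value, so none was run on single genes.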

How the results depend on the processing

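Counts of calls are for late genes. Of 126 alternative values, reruns of the rule included, 103 were within 1.5 times the count first given. Many of these were counts of 0 that stayed 0. The counts higher at 72 h and at 96 h against 48 h moved further than that in most alternatives. At 72 h against 48 h the count higher was 3, and became 8 with DESeq2, 6 with at least 10 counts in every library, 0 with only the 6 libraries compared, and 1 with an absolute log2 fold change above 1. At 96 h against 48 h the count higher was 1, and became 3 with DESeq2, 16 with only the 6 libraries (with 1 lower, where 0 were), and 0 with an absolute log2 fold change above 1. Leaving out 1 library gave 0 to 8 and 0 to 2 for these counts. It was 0 for 72 h against 48 h without replicate 1 of 72 h, 1 without replicate 2 or 3 of 48 h, 6 without replicate 3 of 72 h, and 8 without replicate 1 of 2 h, an alternative chosen after seeing the data. At 96 h against 72 h all alternatives gave 0. With the replicate block the counts higher were 3, 1, and 0, but CHLREDRAFT_188814 was no longer among the 3 (adjusted p = 0.0606 with edgeR). Same-numbered samples deviated together hardly more than others on average (mean r 0.0045 over 108 pairs, -0.17 to 0.31, beside a mean of -0.0015). Whether some same-numbered samples shared a culture cannot be told from this mean, and the main fit did not pair them.

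The 34 genes above every earlier library became 37 with CPM and 36 to 62 when replicates were left out (62 without replicate 1 and 55 without replicate 2 of every condition, where fewer libraries must lie apart). Of the 150 genes, the rerun rule kept 131 with CPM, 124 with a pseudocount of 0.1, 119 with a summed count of 270, 106 with medians, 53 without the 2 h limit, and 99 to 142 when replicates were left out. The 34 genes called in all 6 comparisons with the control and 24 h were 28 to 37 under other tools and settings and 23 to 44 when 1 library was left out, all chosen after seeing the data. With a pseudocount of 0.1, 68, 78, and 76 of 150 genes scored above 0 in the left-out replicate. The cause of these changes was not tested. For the 4 genes named as called, 0 of 52 alternatives turned the direction and 18 lost the call, with CHLREDRAFT_188814 losing it in 7 of 13. With 3 replicates, the smallest difference called within the late period was a log2 fold change of 0.54, and smaller ones may not have been detectable.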

Other observations

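Few of the genes next to late genes scored above 0. Of 160 direct neighbours that passed the count limit and were not late genes, 8 (5.0%) scored above 0. Of all 10502 genes past the count limit outside the late genes, these neighbours included, 354 (3.37%) did. The late mean was above the control in 80 of the 160 (50.0%), where it was in 49.1% of the 10502. The values are a description with no test.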
